A study of Mus musculus with 9 samples.

Results

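The genes described here mark the mural cells of brain vessels, the pericytes and the vascular smooth muscle cells. They are Pdgfrb, Rgs5, Kcnj8, Abcc9, Higd1b, Vtn and Anpep, used here as pericyte genes, and Acta2, Tagln and Myh11, used as smooth muscle genes. They were taken by name from the deposited table, and all 10 were found among its 28991 genes and passed the filter on low counts. Midbrain RNA of C57BL/6 mice was sequenced for 3 groups with 3 animals in each: saline controls, mice injected intraperitoneally with MPTP for 7 days, and mice given the same MPTP with PF4 injected intravenously every 3 days. MPTP is a toxin of dopaminergic neurons used to model Parkinson's disease, and PF4 (platelet factor 4) is a chemokine stored in platelets. The labels state neither age nor dose.

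Pericytes sit within the basement membrane of capillaries, are recruited by PDGF-B from the endothelium through the receptor that Pdgfrb encodes, and help to maintain the blood-brain barrier. Smooth muscle cells wrap arteries and arterioles and set vessel diameter through actin, myosin and their regulators. Both types are a small part of brain tissue and lie close to endothelial cells, perivascular fibroblasts and, at the surface, the meninges.

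Library totals were 32216850 to 36039211 counts. Levels are given as CPM, read counts relative to a library total scaled by the TMM method, and levels are compared between genes as FPKM, which also divides by transcript length. The libraries differed in tissue content before any of the mural genes were considered. Slc6a3, the dopamine transporter, had 574 CPM in control 2, 526 CPM in control 3 and 102 CPM in MPTP+PF4 2. The other 6 libraries had 0.055 to 0.958 CPM. Drd1, a dopamine receptor of striatal projection neurons, had 4.04, 4.80 and 7.74 CPM in these 3, against 44.5 to 398 CPM elsewhere. Haemoglobin transcripts took 0.021%, 0.628% and 0.0792% of the counts in controls 1 to 3. They took 0.00526% to 0.00624% with MPTP and 0.0085% to 0.0386% with MPTP+PF4, so every MPTP library was below all others. Labelled midbrain tissue thus varied in its regional and blood transcripts, and results are given below with and without the libraries concerned.

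Per transcript length, Vtn and Rgs5 were the most abundant of the 10, with medians over 9 libraries of 41.0 and 40.3 FPKM. Vtn ranged from 30.6 to 111 FPKM and Rgs5 from 30.8 to 48.4 FPKM, so their order was not fixed across libraries. Acta2 followed at a median of 16.5 FPKM and Tagln at 8.29 FPKM. Pdgfrb and Higd1b were alike at 4.50 and 4.32 FPKM, with overlapping ranges. Abcc9, Myh11 and Kcnj8 had medians of 2.21, 2.01 and 1.84 FPKM and overlapped too, and Anpep was lowest at 0.816 FPKM. The lowest count of any of these genes in any library was 65, for Anpep, far above the 3 counts per library (0.0832 to 0.0931 CPM) taken as the detection limit. That limit covers counting error only.

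**Figure D1:**
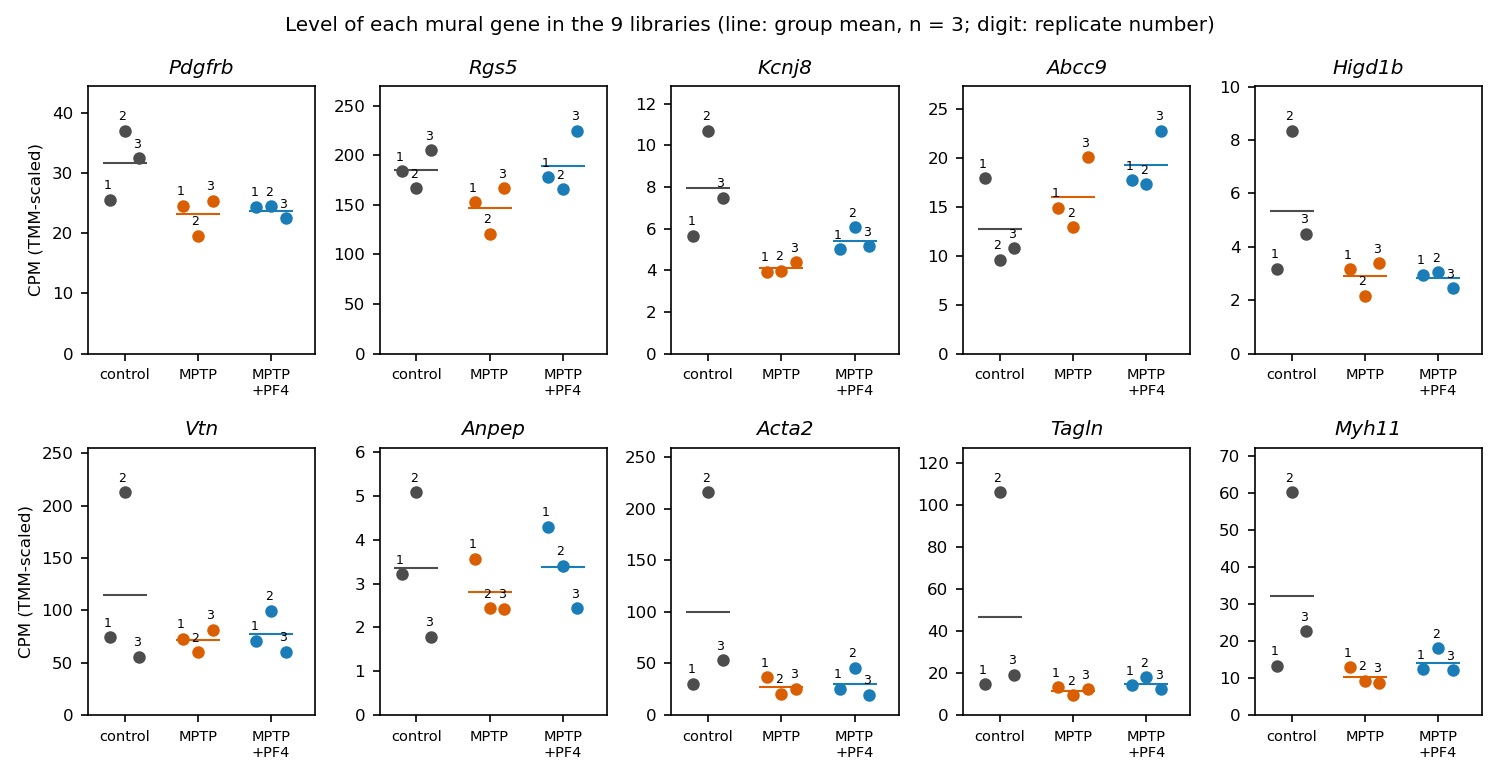
CPM of each mural gene in the 9 libraries, on linear axes from 0, with the replicate number above each point and a line at the mean of 3 mice. Control 2 stands far above the rest in Vtn, Acta2, Tagln and Myh11, while the MPTP libraries sit lowest in Kcnj8 (3.93 to 4.38 CPM).

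The receptor gene Pdgfrb (chr18:61045150-61085061, GRCm38) was at 25.6, 37.1 and 32.5 CPM in controls 1 to 3, at 24.6, 19.6 and 25.4 CPM in MPTP 1 to 3, and at 24.4, 24.5 and 22.5 CPM in MPTP+PF4 1 to 3. All 6 treated libraries lay below all 3 controls, but control 1 was within 1 CPM of MPTP 3. The MPTP mean was 23.2 ± 3.13 CPM and the control mean 31.7 ± 5.79 CPM (SD, n = 3 each). The log2 fold change was −0.45 (SE 0.183), with an edgeR adjusted p of 0.265. For MPTP+PF4 against control it was −0.42 (SE 0.183, edgeR adjusted p 0.272), and for MPTP+PF4 against MPTP 0.04 (SE 0.183), which became −0.04 when library totals alone set the scale. Pdgfb, which encodes the ligand and is shown here although the rule for named genes did not select it, was at 15.2 to 26.1 CPM in all 9 libraries, with a log2 fold change of −0.12 (SE 0.245) for MPTP against control. Pdgfa, the ligand of the related alpha receptor, had 19.1, 44.4 and 33.1 CPM in the control libraries and between 15.3 and 21.8 CPM with MPTP, so the groups overlapped. Its log2 fold change was −0.73 (SE 0.338), was −0.43 without control 2 and turned to 0.02 without controls 2 and 3 and MPTP+PF4 2; it shares 813 exonic bases with an antisense gene.

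Rgs5 (chr1:169655501-169695813) encodes a regulator of G protein signalling and is among the most used pericyte markers. It was at 184, 167 and 205 CPM in controls, at 153, 121 and 167 CPM with MPTP, and at 178, 166 and 225 CPM with MPTP+PF4. The control and MPTP values touched without crossing, control 2 and MPTP 3 both rounding to 167 CPM. As FPKM they crossed, with 37.1 in control 2 and 38.4 in MPTP 3. The log2 fold change was −0.34 (SE 0.186) for MPTP against control and 0.37 (SE 0.186) for MPTP+PF4 against MPTP, with edgeR adjusted p of 0.320 and 1. With an offset for GC content and length the first was −0.66 (SE 0.179, edgeR unadjusted p 0.00534, adjusted p 0.264). For MPTP+PF4 against control it was 0.03 (SE 0.186) and became −0.39 with the same offset. Rgs5 was 1 of only 2 of the 10 genes, with Abcc9, in which control 2 was not the highest library.

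Kcnj8 (chr6:142564837-142571614) and Abcc9 (chr6:142587862-142702315) encode the pore, Kir6.1, and the regulatory subunit, SUR2, of the vascular ATP-sensitive potassium channel, whose opening relaxes mural cells. They are neighbours on the same strand, 16247 bases apart. Kcnj8 was at 5.66, 10.7 and 7.47 CPM in controls, at 3.93, 3.97 and 4.38 CPM with MPTP, and at 5.01, 6.05 and 5.15 CPM with MPTP+PF4. Every MPTP library was below every control and every MPTP+PF4 library, a pattern that 1.26% of all genes tested had and no other of the 10 showed. The counts behind these values were 143 to 355. For MPTP against control the log2 fold change was −0.96 (SE 0.268, edgeR unadjusted p 0.00622, adjusted p 0.261), the smallest unadjusted p of the 10. For MPTP+PF4 against MPTP it was 0.40 (SE 0.267, edgeR adjusted p 1), and for MPTP+PF4 against control −0.56 (SE 0.267, edgeR adjusted p 0.284).

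Abcc9 was at 17.9, 9.58 and 10.8 CPM in controls, at 14.9, 12.9 and 20.1 CPM with MPTP, and at 17.7, 17.3 and 22.8 CPM with MPTP+PF4. With all controls it ran opposite to its partner in both comparisons with control, while both genes were higher in MPTP+PF4 than in MPTP (Abcc9 0.27, SE 0.278). Without controls 2 and 3 and MPTP+PF4 2, both were lower in MPTP than in the remaining control, at −0.47 for Kcnj8 and −0.16 for Abcc9. Control 2, the highest library for Kcnj8, was the lowest for Abcc9, as for 29.3% of all genes tested. The ratio of Kcnj8 to Abcc9 in FPKM reached 3.36 in control 2 and 2.06 in control 3, but 0.640 to 1.04 across the remaining 7 libraries. MPTP+PF4 2, which shared the high Slc6a3 of those 2 controls, had the highest ratio of the 7. The log2 fold change of Abcc9 was 0.32 (SE 0.279) for MPTP against control, turning to −0.05 with the GC and length offset, and 0.60 (SE 0.279, edgeR adjusted p 0.279) for MPTP+PF4 against control. Without control 1 the latter was 0.92 (SE 0.246, edgeR adjusted p 0.0316), with only the controls high in Slc6a3 left. The low Abcc9 values fell in the 2 libraries with the lowest Drd1, but MPTP+PF4 2, next lowest in Drd1 (7.74 CPM), had 17.3 CPM of Abcc9. The part of regional tissue content in the Abcc9 values was not tested. Abcc9 also shares 158 exonic bases with a gene on the other strand, and no source used here gives the strand setting of the counts.

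The promoters of this pair are shown because subunits of 1 channel, side by side in the genome, had different profiles over the control libraries. Each runs from 250 bases before to 50 after the gene's RefSeq start, 5′ to 3′ on the minus strand (RefSeq, GRCm38.p6), with CpG dinucleotides in capitals. RefSeq promoters were matched for 6 of the 10 genes (Rgs5, Kcnj8, Abcc9, Anpep, Vtn and Acta2), and not for Pdgfrb, Tagln, Myh11 and Higd1b. The windows are chr6:142571565-142571864 for Kcnj8 and chr6:142702225-142702524 for Abcc9. The RefSeq start is the end of the Kcnj8 interval given above, and lies 41 bases inside that of Abcc9.
Kcnj8: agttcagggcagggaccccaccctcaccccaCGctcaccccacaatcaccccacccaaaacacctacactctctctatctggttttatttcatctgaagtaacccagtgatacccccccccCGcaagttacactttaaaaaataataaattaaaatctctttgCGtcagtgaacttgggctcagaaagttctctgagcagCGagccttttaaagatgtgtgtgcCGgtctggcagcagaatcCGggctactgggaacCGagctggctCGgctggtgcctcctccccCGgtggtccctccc
Abcc9: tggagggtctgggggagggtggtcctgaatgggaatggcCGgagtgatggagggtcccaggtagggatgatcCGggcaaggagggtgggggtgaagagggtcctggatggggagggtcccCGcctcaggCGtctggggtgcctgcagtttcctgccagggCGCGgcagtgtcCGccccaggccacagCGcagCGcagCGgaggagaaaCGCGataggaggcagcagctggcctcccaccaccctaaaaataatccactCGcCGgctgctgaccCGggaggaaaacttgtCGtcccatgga
The Kcnj8 window held 9 CpG dinucleotides at a GC content of 53.3%, and that of Abcc9 held 16 at 65.7%. These letters describe the windows and were not related to the expression values by any test.

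Higd1b (chr11:102835849-102838040), a mitochondrial HIG1 domain protein of pericytes, was at 3.17, 8.35 and 4.49 CPM in controls, at 3.16, 2.16 and 3.38 CPM with MPTP, and at 2.95, 3.04 and 2.44 CPM with MPTP+PF4. Control 1 lay within the MPTP range, and all 3 MPTP+PF4 libraries were below all controls. In edgeR the log2 fold change was −0.88 (SE 0.383) for MPTP against control and −0.92 (SE 0.383) for MPTP+PF4 against control, with edgeR adjusted p of 0.271 and 0.268. They were −0.40 and −0.44 without control 2, and −0.12 and −0.16 with the GC and length offset. Without control 1 they were −1.14 and −1.19, with edgeR adjusted p of 0.0465 and 0.0417. Only the controls high in Slc6a3 were left in that fit.

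Vtn (chr11:78499091-78502324), which encodes the adhesive glycoprotein vitronectin secreted by pericytes, was at 74.5, 213 and 55.9 CPM in controls, at 72.8, 59.8 and 81.5 CPM with MPTP, and at 71.0, 99.5 and 60.6 CPM with MPTP+PF4. Control 2 alone was outside a range of 55.9 to 99.5 CPM that held the other 8 libraries. Its log2 fold change for MPTP against control was −0.68 (SE 0.456) with all libraries and 0.14 (SE 0.257) without control 2. Anpep (chr7:79821803-79861059), the membrane aminopeptidase CD13, was at 3.22, 5.09 and 1.79 CPM in controls, at 3.57, 2.44 and 2.43 CPM with MPTP, and at 4.30, 3.41 and 2.44 CPM with MPTP+PF4. The groups overlapped in every comparison, and its log2 fold change of −0.26 (SE 0.415) for MPTP against control was 0.17 (SE 0.396) without control 2.

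The smooth muscle genes had the widest spread. Acta2 (chr19:34241090-34255590), the smooth muscle alpha-actin, was at 30.5, 216 and 53.2 CPM in controls, at 36.8, 20.5 and 25.5 CPM with MPTP, and at 25.5, 46.0 and 19.6 CPM with MPTP+PF4. Control 2 held 4.07 times the next library, and control 1 lay inside the MPTP range. The control mean was 100 ± 101 CPM and the MPTP mean 27.6 ± 8.32 CPM (SD, n = 3 each). The log2 fold change was −1.86 (SE 0.677, edgeR adjusted p 0.261). Without control 2 it was −0.60 (SE 0.411, edgeR adjusted p 0.708). Acta2 resembles other actin genes, between which reads may be shared; Actg2 was at 0 to 1.51 CPM, Actc1 at 0 to 0.0603 CPM and Acta1 at 3.07 to 9.54 CPM.

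Tagln (chr9:45929619-45936058), which encodes the actin-binding protein transgelin, was at 14.6, 106 and 19.1 CPM in controls, at 13.1, 9.5 and 12.3 CPM with MPTP, and at 14.1, 17.9 and 12.3 CPM with MPTP+PF4. Its groups did not overlap between control and MPTP, though control 1 and MPTP 1 were close. On the log2 scale the fold change was −2.0 (SE 0.674, edgeR adjusted p 0.261), and −0.53 (SE 0.242) without control 2. Tagln shares 1241 exonic bases with the antisense gene Gm48529 and 108 with Pcsk7, whose reads cannot be separated from its own unless strand was used.

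Myh11 (chr16:14194535-14291372), the smooth muscle myosin heavy chain, was at 13.3, 60.2 and 22.7 CPM in controls, at 12.9, 9.30 and 8.70 CPM with MPTP, and at 12.4, 18 and 12.1 CPM with MPTP+PF4. Again the control and MPTP values did not overlap, and controls 2 and 3 held the 2 highest values. The difference on the log2 scale was −1.64 (SE 0.496, edgeR unadjusted p 0.00932, adjusted p 0.261) and −0.81 (SE 0.303, edgeR unadjusted p 0.0288, adjusted p 0.708) without control 2. For MPTP+PF4 against MPTP it was 0.46 (SE 0.486, edgeR adjusted p 1).

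The Acta2 promoter is shown because serum response factor, with its partner myocardin, drives contractile genes through the CArG box. The window is chr19:34255324-34255623 (RefSeq, GRCm38.p6, minus strand, 5′ to 3′), and capitals mark 2 matches to the CArG box that differ from it by 1 letter.
Acta2: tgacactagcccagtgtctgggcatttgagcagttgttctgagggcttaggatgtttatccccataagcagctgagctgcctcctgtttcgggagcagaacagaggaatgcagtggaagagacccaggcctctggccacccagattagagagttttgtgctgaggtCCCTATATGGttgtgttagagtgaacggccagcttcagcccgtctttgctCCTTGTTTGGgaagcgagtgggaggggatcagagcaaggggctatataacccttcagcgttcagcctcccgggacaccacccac
The matches CCCTATATGG and CCTTGTTTGG began 84 and 34 bases before the RefSeq start, which lies 217 bases inside the Acta2 interval given above. The motif reads the same on both strands and the matches do not overlap. An exact CArG box was in none of the 6 matched promoters and in 1.63% of all 32851. With 1 letter allowed to differ, a search chosen after the exact one found none in these 6, 9.98% of all promoters had a match and 0.822% had 2 or more. Of the 6 matched promoters 1, that of Acta2, had a match. Among 19 promoters from the list of contractile genes described below, 1 had an exact box. With 1 letter allowed to differ, 2 of these 19 had a match, each with 2 or more. A match is a description of the letters and no evidence of binding.

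The effect of the toxin was addressed by comparing MPTP with control, though controls 2 and 3 were rich in Slc6a3 and no MPTP library was. Of the 10 mural genes 9 were lower with MPTP, where 49.1% of all genes tested were below 0, and Abcc9 was higher. The median log2 fold change was −1.86 for the 3 smooth muscle genes and −0.45 for the 7 pericyte genes, against 0.01 for all genes. In edgeR 0 of the 10 and 0 of 17285 genes (0%) passed an adjusted p of 0.05. At an unadjusted p under 0.05, 6 were lower (Pdgfrb, Kcnj8, Acta2, Tagln, Myh11 and Higd1b), where 12.9% of all genes were, and 0 were higher, where 5.32% were. DESeq2 called 279 genes (1.65%) and 0 of the 10, and limma voom with sample weights called 8943 genes (51.7%) and 6 of the 10 (Pdgfrb, Rgs5, Kcnj8, Myh11 and Higd1b lower, Abcc9 higher). The CPM values did not overlap, with MPTP lower, for 5 of the 10 (Pdgfrb, Rgs5, Kcnj8, Tagln and Myh11), as for 9.19% of all genes, and with MPTP higher for 0 (9.01% of all genes). The authors' deposited table lists Acta2, Tagln and Myh11 as lower, with 5.84% of its 14790 genes that have an entry for that comparison, and none as higher (2.12%). Which of its words meant lower was set from the fold changes fitted here, so the direction of these calls is not independent. In bulk tissue, fewer cells of a type and less RNA per cell cannot be told apart.

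**Figure D2:**
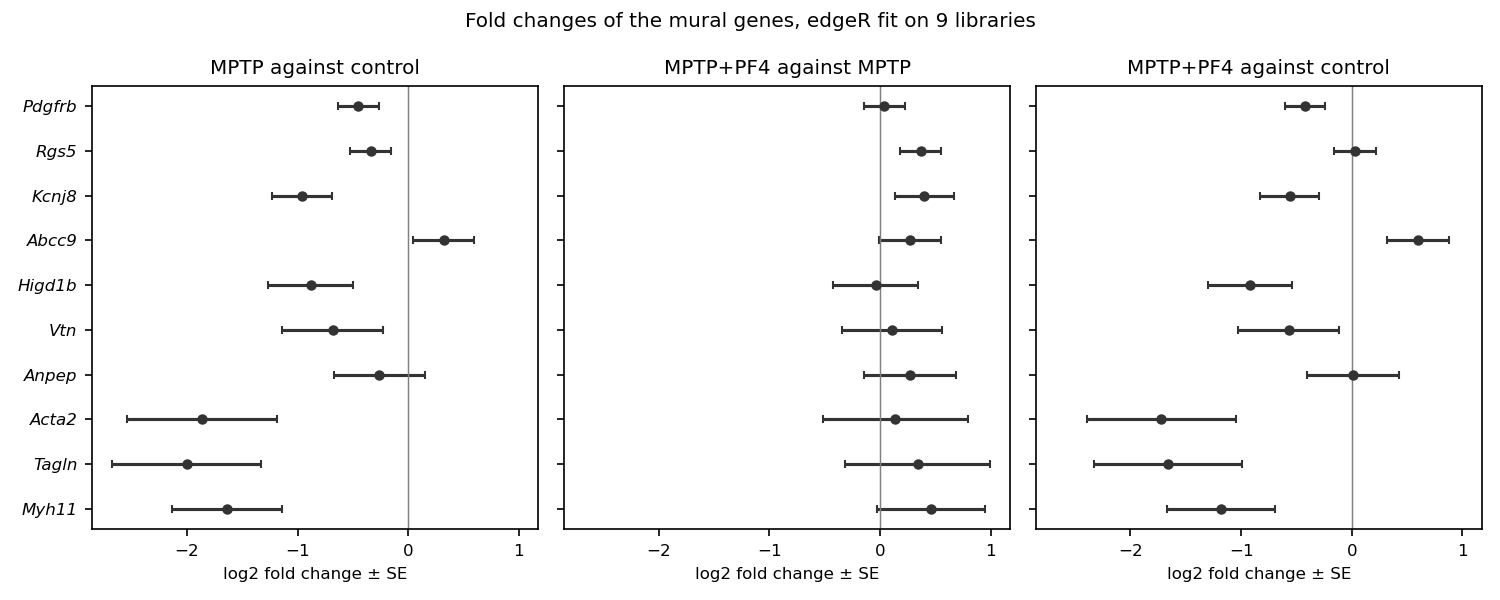
Log2 fold changes (points) with SE (bars) of the 10 mural genes in the 3 comparisons, from edgeR on 9 libraries. The smooth muscle genes lie farthest below 0 in both comparisons with control (−2.0 to −1.18), and no gene exceeds 0.46 in either direction in MPTP+PF4 against MPTP.

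These values depended on which control libraries were used. Control 2 was the highest of 9 libraries for 8 of the 10 genes, as for 28.6% of all genes tested. It exceeded the next library more than 2-fold for 4 of them, Vtn, Acta2, Tagln and Myh11, as for 1.89% of all genes. Over the mean of controls 1 and 3 it held 5.17 times the Acta2, 6.30 times the Tagln, 3.34 times the Myh11 and 3.27 times the Vtn. Without control 2 the median of the 10 was −0.40, with 7 below 0, and 2 (Kcnj8 and Myh11) had an unadjusted p under 0.05 in edgeR, as did 4.32% of genes in that direction, with 0 higher (1.59%). Without control 1, edgeR called Pdgfrb, Kcnj8, Acta2, Tagln, Myh11 and Higd1b lower at an adjusted p under 0.05, along with 14% of the 17716 genes tested, and none higher (11.9%). Control 1 was the only control low in Slc6a3 (0.393 CPM). Controls 2 and 3 had 574 and 526 CPM, against 0.055 to 0.958 CPM with MPTP. In the fit without control 1, toxin and regional tissue content therefore cannot be told apart. With all libraries they are not fully separated either, since controls 2 and 3 were rich in Slc6a3 and no MPTP library was. The fit without control 2 still holds control 3. Without controls 2 and 3 and MPTP+PF4 2, the 3 libraries rich in Slc6a3, the median of the 10 was −0.18, with a single control left.

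**Figure D3:**
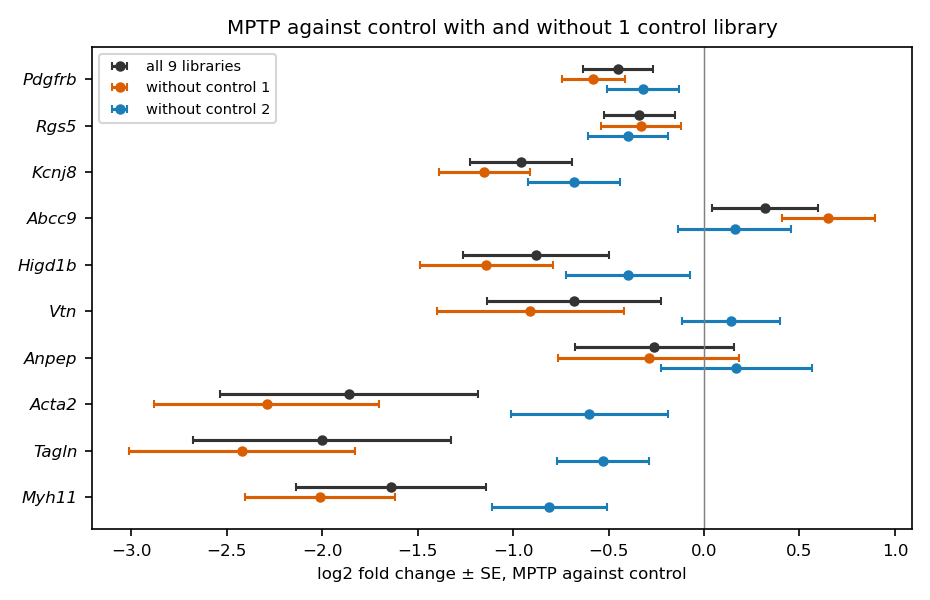
Log2 fold change (points) and SE (bars) for MPTP against control, with all 9 libraries, without control 1 and without control 2. Leaving out control 2 moves Acta2 from −1.86 to −0.60 and Tagln from −2.0 to −0.53, while Rgs5 (−0.34 and −0.40) and Kcnj8 (−0.96 and −0.68) move less.

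The effect of PF4 in toxin-treated mice was addressed by comparing MPTP+PF4 with MPTP. The differences were small: 9 of the 10 genes were higher with PF4, where 46.6% of all genes were below 0, and the median was 0.27. In edgeR 0 of the 10 and 0 of 17285 genes (0%) passed the adjusted threshold, and at an unadjusted p under 0.05 there were 0 of the 10 in either direction (0.648% of all genes higher, 1.36% lower). DESeq2 called 17 genes (0.091%) and limma voom 2 (0.0116%), none of them mural. Kcnj8 was the only mural gene whose values did not overlap, with PF4 higher, as for 3.04% of all genes, and none was lower without overlap (4.07%). Kcnj8 (0.40, SE 0.267) and Rgs5 (0.37, SE 0.186) differed by more than their SE, Rgs5 with overlapping values. The other 8 differed by less than their SE, Myh11 (0.46, SE 0.486) and Tagln (0.34, SE 0.654) among them. The authors' deposited table calls none of the 10 in this comparison, with 1.2% of genes lower and 0.205% higher.

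MPTP+PF4 against control shares its controls with the first comparison. The median of the 10 was −0.56, with 7 below 0, where 50.2% of all genes were. Acta2 had −1.72 (SE 0.674), Tagln −1.66 (SE 0.666) and Myh11 −1.18 (SE 0.490), each with an edgeR adjusted p of 0.268. In edgeR 0 of the 10 and 0 of all genes (0%) passed, and 5 (Pdgfrb, Acta2, Tagln, Myh11 and Higd1b) were lower at an unadjusted p under 0.05, as were 12.1% of all genes, with 0 higher (6.25%). DESeq2 called 9 genes (0.038%) and 0 of the 10. With limma voom 9395 genes (54.4%) and 7 of the 10 were called (Pdgfrb, Kcnj8, Acta2, Myh11 and Higd1b lower, Abcc9 and Anpep higher). Values did not overlap, with MPTP+PF4 lower, for Pdgfrb and Higd1b, as for 6.78% of genes, and for none with MPTP+PF4 higher (5.61%). The authors' deposited table lists Acta2, Tagln and Myh11 as lower here too, with 4.77% of 14682 genes. Without control 1, edgeR called the same 5 lower at an adjusted p under 0.05 (13.2% of genes) and Abcc9 higher (12.4%). The controls left in that fit were again those rich in Slc6a3. Without control 2, 0 of the 10 had an unadjusted p under 0.05 in edgeR (2.95% of genes lower, 1.35% higher), and Tagln was at −0.19 (SE 0.243) and Myh11 at −0.34 (SE 0.304).

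Levels were also set against 16 endothelial genes in each library. The mean log2 CPM of the 7 pericyte genes minus that of the endothelial genes was −1.22 to −0.89 in all 9 libraries, a range of 0.33, but single pericyte genes moved apart within that mean. Against the endothelial mean, Pdgfrb had a range of 0.32, Kcnj8 of 0.74, Rgs5 of 1.05, Higd1b of 1.14, Anpep of 1.45, Vtn of 1.51 and Abcc9 of 1.87. In control 2 Vtn was at its highest and Abcc9 at its lowest. For the mean of the 3 smooth muscle genes the difference was 1.18 in control 2 and −1.16 to −0.37 in the other 8, a range of 2.34 with control 2 and 0.79 without it, and the single genes had ranges of 2.12 to 2.84 with control 2 and 0.56 to 1.23 without it. Control 3 and MPTP+PF4 2 came next to control 2, both at −0.37, so the 3 libraries rich in Slc6a3 also had the most smooth muscle transcript per endothelial transcript. The ratio of Acta2 to Pdgfrb in FPKM reached 17.7 in control 2, 5.70 in MPTP+PF4 2 and 4.98 in control 3, but 2.66 to 4.53 across the remaining 6. The part of regional tissue content in this pattern was not tested.

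**Figure D4:**
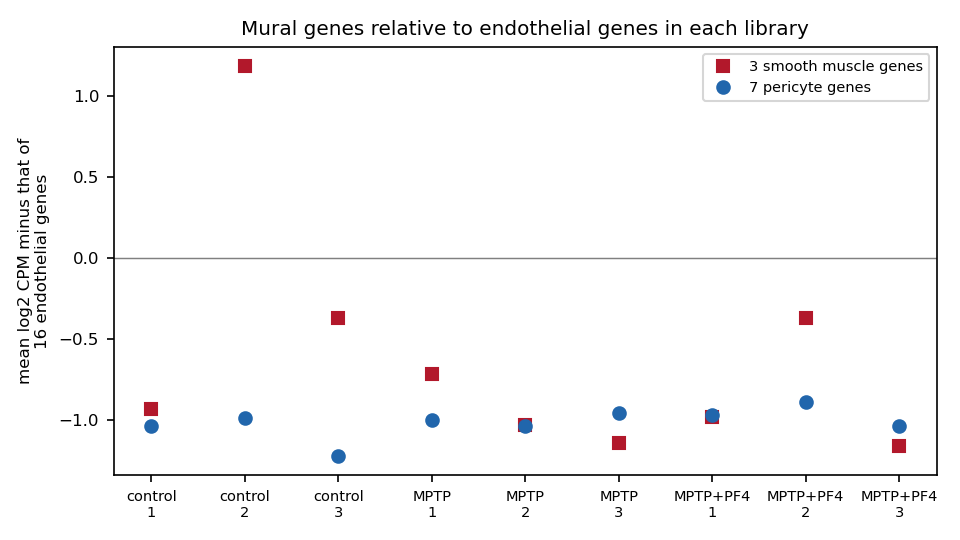
Mean log2 CPM of the 3 smooth muscle genes (squares) and the 7 pericyte genes (circles) minus that of 16 endothelial genes, in each library. The mean of the pericyte genes stays between −1.22 and −0.89, though single genes range over 0.32 to 1.87, while the mean of the smooth muscle genes reaches 1.18 in control 2.

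Other genes of these cells were read from the lists, and with all libraries 0 of their members passed the adjusted threshold in edgeR in any comparison. Without control 1, in MPTP against control, 11 of 19 contractile genes were called lower, of 20 further pericyte genes 7 lower and 1 higher, 7 of 16 endothelial genes lower and 4 of 12 meningeal fibroblast genes lower, beside the 14% and 11.9% of all genes called lower and higher. The medians of these 4 lists were then −1.70, −0.53, −0.53 and −1.96. In that fit toxin and regional tissue content cannot be told apart, as stated above. Of 20 further pericyte genes, 8 were lower and 0 higher with MPTP at an unadjusted p under 0.05 (12.9% and 5.32% of all genes), with a median log2 fold change of −0.44. Ndufa4l2, a mitochondrial protein of pericytes, had −1.56 (SE 0.477), Gja4, the arterial connexin 37, −1.62 (SE 0.503), and Cox4i2, a cytochrome oxidase subunit, −1.40 (SE 0.455). Without control 2 these were −1.01, −0.96 and −0.84, and the list's median was −0.25. Of 19 tested contractile genes 10 were lower and 0 higher, with a median of −1.34, or −0.70 without control 2. Tpm2, a tropomyosin, had 13, 70.4 and 25.0 CPM in the control libraries and between 5.31 and 9.68 CPM with MPTP, so every control was above every MPTP library. Its log2 fold change was −2.16 (SE 0.559), and −1.23 (SE 0.361) without control 2. Myl9, the regulatory light chain of myosin, had −1.83 (SE 0.551) and Crip1, a LIM domain protein, −2.19 (SE 0.689), and these were both −0.84 without control 2. Several listed genes, such as Rgs4, Sncg and Adora2a, are also expressed by neurons. Sncg had −3.49 (SE 1.19) for MPTP against control and was counted among the lower genes of its list, while Rgs4 and Adora2a had 1.14 and 1.52.

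Klf4, a transcription factor that represses contractile genes in smooth muscle and is also made by endothelium, followed the same order of groups as Kcnj8. It was at 6.28, 8.17 and 6.39 CPM in controls, at 3.49, 3.48 and 3.47 CPM with MPTP, and at 5.96, 5.59 and 4.59 CPM with MPTP+PF4. The 3 groups did not overlap, and the log2 fold change was −1.0 (SE 0.225, edgeR adjusted p 0.261) for MPTP against control and 0.63 (SE 0.224, edgeR adjusted p 1) for MPTP+PF4 against MPTP. Without control 2 the first was −0.86. Of the 8 genes on the serum response factor and myocardin list, 6 passed the filter on low counts and were tested. Among these, Klf4 was the only one at an unadjusted p under 0.05 in MPTP against control. Of all genes, 12.9% were lower and 5.32% higher at that p. The list's median was 0.78. Srf, named here outside the rule, had 4.76 and 9.59 CPM in controls 2 and 3 and between 12.0 and 26.1 CPM in the rest.

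Kcnmb1, the smooth muscle subunit of the large-conductance potassium channel, ran the other way. It was at 1.18, 1.99 and 0.882 CPM in controls, at 4.48, 2.82 and 4.14 CPM with MPTP, and at 0.861, 1.89 and 1.94 CPM with MPTP+PF4, so every MPTP library was above all others. The log2 fold change was 1.50 (SE 0.444) and then −1.28 (SE 0.441), with edgeR adjusted p of 0.261 and 1. Kcnmb1 lies within Kcnip1 on the other strand, with no shared exonic bases. Kcnmb1, like Klf4, Ptger4 and P2ry14, was named for its small unadjusted p in these same comparisons. Separation of the groups in such genes follows from that choice and is no independent evidence. Among 17 genes for vasoactive receptors and their effectors, 1 was lower and 2 were higher with MPTP at an unadjusted p under 0.05 (12.9% and 5.32% of all genes). Without control 1, edgeR called 1 lower and 4 higher at an adjusted p under 0.05, beside 14% and 11.9% of all genes. Only the controls rich in Slc6a3 were left in that fit. The lower one with all libraries was Ptger4, a prostaglandin E receptor, at 1.43, 4.31 and 2.81 CPM in controls, 0.761 to 1.37 CPM with MPTP and 1.84 to 2.95 CPM with MPTP+PF4; it shares 1015 exonic bases with a pseudogene on the other strand. Ednrb, an endothelin receptor that astrocytes also carry, had 0.72 (SE 0.235) for MPTP against control.

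In the wider signalling lists the medians were near 0. Of 8 genes for PDGF ligands, the alpha receptor and signal transducers, 0 had an unadjusted p under 0.05 in MPTP against control (median −0.02), and the same held for 12 genes of the vascular basement membrane (median −0.15). Of 16 genes of Notch, angiopoietin and TGF-beta signalling in mural recruitment, 3 were lower at that p, where 12.9% of all genes were, with a median of −0.04. Tek, the angiopoietin receptor of endothelium, had −0.48 (SE 0.183), and −0.30 without control 2. Eng, a TGF-beta co-receptor, had −0.51 (SE 0.207), and −0.34 without control 2. For MPTP+PF4 against MPTP the medians of these 3 lists were 0.03, 0.08 and 0.09. P2ry14, a nucleotide sugar receptor on the pericyte list, had 3.27, 3.58 and 4.99 CPM with MPTP and between 5.53 and 6.58 CPM with MPTP+PF4, without overlap (log2 fold change 0.58, SE 0.243, edgeR adjusted p 1). It lies within Med12l on the other strand.

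**Figure D5:**
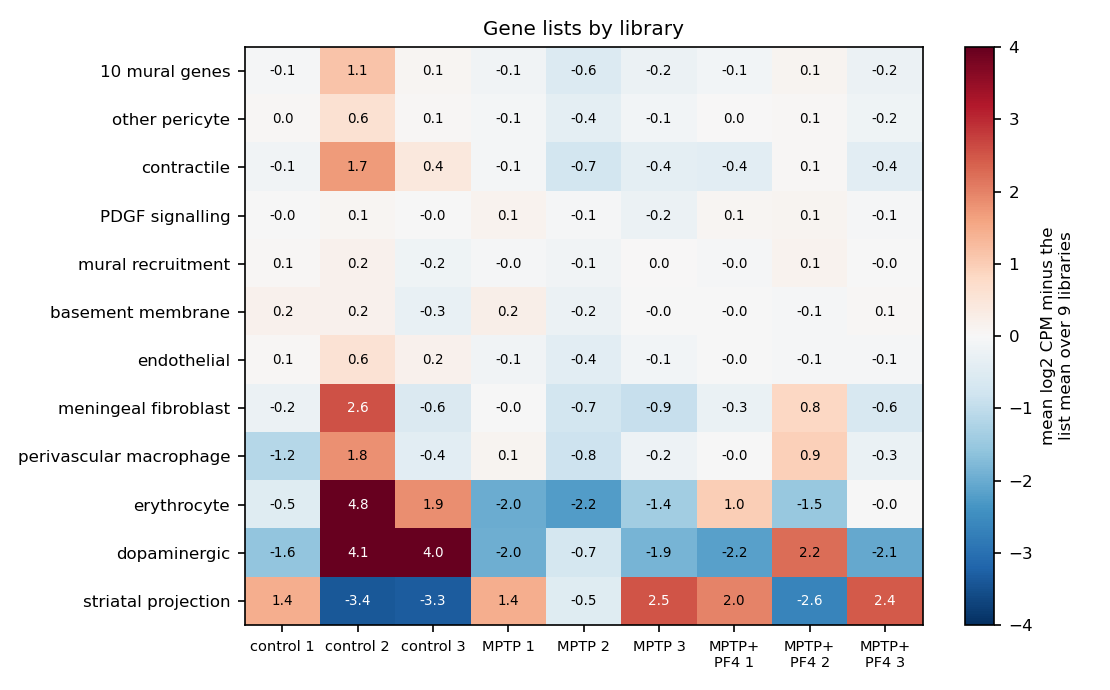
Mean log2 CPM of each gene list in each library, minus the list's mean over the 9 libraries, with colours capped at 4. Control 2 is highest for the 10 mural genes (1.1), the contractile list (1.7), meningeal fibroblasts (2.6), perivascular macrophages (1.8) and erythrocytes (4.8).

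Markers of neighbouring cell types differed between the same libraries as the mural genes. Of 16 endothelial genes 9 were lower and 0 higher with MPTP at an unadjusted p under 0.05, where 12.9% and 5.32% of all genes were. Their median was −0.44, and −0.30 without control 2, and 10 were highest in control 2, as were 28.6% of all genes. Their summed level was 733 to 1170 CPM in controls, 517 to 673 CPM with MPTP and 675 to 728 CPM with MPTP+PF4, and none was at 0 in every library. Ly6c1, an endothelial surface antigen, had −1.02 (SE 0.256) and Cldn5, the tight junction claudin-5, −1.74 (SE 0.522), and these were −0.75 and −1.01 without control 2. Of 12 meningeal fibroblast genes 11 were tested, 7 were lower (12.9% of all genes), and 11 were highest in control 2, with sums of 84.2 to 396, 52.8 to 154 and 67.6 to 124 CPM in the 3 groups. Their median was −1.55, and −0.27 without control 2. Lum, the proteoglycan lumican, had 2.97, 7.11 and 3.56 CPM in the control libraries and between 1.16 and 2.53 CPM with MPTP.

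Of 7 perivascular macrophage genes 5 were highest in control 2, against 28.6% of all genes, and they summed to 5.84 to 25.1, 6.10 to 9.16 and 9.10 to 14.6 CPM. All 6 erythrocyte genes were highest in control 2. They summed to 212 to 6580 CPM in controls, 49.3 to 64.4 CPM with MPTP and 83.1 to 403 CPM with MPTP+PF4. Every MPTP library was thus below all others, as for Kcnj8. The median log2 fold change of the 5 tested was −5.47 for MPTP against control and −3.1 without control 2. For MPTP+PF4 against MPTP it was 2.09. Skeletal and cardiac muscle genes, which would also carry actin transcripts, summed to 4.13 to 11.0 and 3.56 to 6.54 CPM over all libraries. Choroid plexus genes had another order, with 0 of 8 highest in control 2 and a sum of 3200 CPM in the library where they were highest, an MPTP library. The part of blood, meningeal or choroid tissue in the mural values was not tested.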

How the data were processed

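RNA of 9 midbrain samples, 3 mice in each of 3 groups, was made into mRNA libraries from 1 µg of total RNA, per the labels' protocols. The deposited table gives read counts as whole numbers, per the file headers. Beside them it gives FPKM, which by its name the authors scaled to gene length and sequencing depth. The table also holds the authors' calls in words, which the file headers tie to DESeq2 with thresholds of 0.05 for p and 2 for fold. The columns of p and fold themselves were left out. Which word meant higher was set for each comparison from the fold changes fitted here. Aligner, counter and strandedness are not given in the sources used here, and the submitters' processing notes name the build mm9. Positions are from GENCODE on GRCm38, matched by identifier with none converted. Of 29001 lines, 10 with broken fields were left out, which left 28991 genes.

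The main test was edgeR 4.0.16 under R 4.3.3 (TMM scaling, filterByExpr, robust quasi-likelihood fit, all 9 libraries in 1 model of group), with Benjamini-Hochberg adjustment over 17285 genes and a threshold of 0.05 on the adjusted p. The common biological coefficient of variation was 0.394. DESeq2 1.42.0 and limma 3.58.1 were alternatives, as were other scalings, filters and samples, and a GC and length offset from natural splines with 5 degrees of freedom, fitted on the 89% of tested genes with an annotation. Counts were simulated for each gene independently, at its own estimated dispersion. On these, edgeR recovered 9% of 2-fold and 62% of 4-fold changes in MPTP against control, with 4 false calls among 16994 genes. At a dispersion of 0.02 it recovered 97% and 100%, with 8 false calls among 17027 genes. The simulated counts held no differences in tissue content shared between genes, so these shares may not carry over to the 9 libraries.

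No pair of libraries agreed within sampling noise (lowest chi-square per degree of freedom 30.1). The replicates were separate mice, per the series' design text.

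The mural genes and the other lists were chosen with earlier results of these data known. Beyond the 10, the text names from each list the members with the smallest unadjusted p in MPTP against control or MPTP+PF4 against MPTP (at most 3 for each), markers of other cell types, and Slc6a3 and Drd1. Pdgfb, Srf and the 3 list genes noted as neuronal were named outside this rule, after their values were seen.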

Additional observations from a re-analysis of the deposited data

How the results depend on the processing

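Over 22 alternatives, 1001 of 1122 fold changes of single genes kept their direction and their side of the threshold, 84 came to pass it and 37 changed sign. These pooled values include the list genes named for their small unadjusted p. All sign changes except that of Pdgfa fell on the 10 mural genes. Vtn had 9, Anpep 7 and Acta2 6, while Kcnj8, Myh11 and Tagln had none. The members' medians kept their sign in every alternative run for each comparison. With 3 mice a group and a coefficient of variation of 0.394, most 2-fold differences were missed in the simulated counts. Values short of the threshold thus do not show equal levels.

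Genes past the threshold in edgeR numbered 0 in each comparison. DESeq2 called 279 for MPTP against control, 17 for MPTP+PF4 against MPTP and 9 for MPTP+PF4 against control; limma voom with sample weights called 8943, 2 and 9395, of which 6, 0 and 7 were mural. Without control 1 and MPTP+PF4 2, edgeR called 5629 genes for MPTP against control (6 mural) and 5980 for MPTP+PF4 against control (4 mural). These totals exceeded the 4577 and 4539 genes called without control 1 alone, and the mural counts are not read as particular to the mural genes. The controls in this fit were rich in Slc6a3 and no treated library was. Without controls 2 and 3 and MPTP+PF4 2, with a single control left, the medians of the mural genes were −0.18 and −0.13 in the same comparisons. With 1 library left out in turn, the counts ranged from 0 to 4577 genes (0 to 6 mural) for MPTP against control. For MPTP+PF4 against control they ranged from 0 to 4539 (0 to 6 mural). Both were highest without control 1, where 17716 genes were tested and 1 of the latter 6, Abcc9, was higher. The counts stayed at 0 for MPTP+PF4 against MPTP. The medians then ranged from −1.03 to −0.40, from −0.77 to −0.23 and from 0.14 to 0.37 in the same order. The cause was not tested.

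With the replicate number as a block, edgeR called 0 mural genes, the medians were −0.62, 0.23 and −0.48 for MPTP against control, MPTP+PF4 against MPTP and MPTP+PF4 against control, and Acta2 turned to −0.10 in MPTP+PF4 against MPTP. Same-numbered libraries had correlations of −0.264 to 0.486 in their deviations from the group means, with 6 of 9 pairs over 0.1, and 11 of 18 comparisons of a library with another group were highest for its own number, a hint from the data only. The highest was between MPTP 2 and MPTP+PF4 2, which had the lowest Drd1 of their groups (44.5 and 7.74 CPM). The part of regional tissue content in these correlations was not tested.

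Sign changes in MPTP against control were Abcc9 with the GC and length offset (−0.05) and without controls 2 and 3 and MPTP+PF4 2 (−0.16), Vtn (0.24) and Anpep (0.59) with limma voom, Anpep on log2(FPKM + 0.1) (0.0034), and Pdgfa without those 3 libraries (0.02). In MPTP+PF4 against MPTP, Pdgfrb turned with library totals alone (−0.04), on log2(FPKM + 0.1) (−0.04) and log2(FPKM + 1) (−0.03), and without control 1 and MPTP+PF4 2 (−0.0027). Vtn turned with limma voom (−0.04), without the 3 libraries (−0.12) and without control 1 and MPTP+PF4 2 (−0.13), and Acta2 likewise (−0.19, −0.29 and −0.31). In MPTP+PF4 against control, Rgs5 turned with limma voom (−0.15) and the offset (−0.39), Vtn with limma voom (0.20), and Anpep without control 1 and MPTP+PF4 2 (−0.0038).

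With 1 library left out, ranges that crossed 0 in MPTP against control were −1.01 to 0.14 for Vtn and −0.56 to 0.17 for Anpep. In MPTP+PF4 against MPTP they were −0.09 to 0.11 for Pdgfrb, −0.12 to 0.25 for Vtn, −0.29 to 0.38 for Acta2 and −0.23 to 0.08 for Higd1b. In MPTP+PF4 against control they were −0.10 to 0.12 for Rgs5, −0.90 to 0.25 for Vtn and −0.29 to 0.44 for Anpep.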
